A study of Mus musculus with 12 samples.

Results

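The genes described here are 41 genes that mark the blood vessels of a tumor: the endothelial cells that line them, the sprouting tip cells, the lymphatic endothelium and the mural cells that wrap around them. They were chosen by name, each gene symbol being matched to its mouse Ensembl identifier through the GENCODE M21 annotation, and all 41 of 41 were found among the 30630 genes listed for every tumor. By role they are 24 genes of endothelial identity, 4 arteriovenous and Notch genes, 5 tip cell genes, 2 lymphatic genes and 6 mural genes. The tumors came from the CT-26 line, a colon carcinoma line derived from a mouse, injected under the skin of male BALB/c mice that were 4 to 6 weeks old when they were purchased. Tumor-bearing mice were divided into a control group, for which no swimming is described, and a swimming group that swam 2 times per day on 6 days per week for up to 30 min, with the experiment ending after 3 weeks. No drug treatment, transgene or deletion is described for either group. The cells were injected in Matrigel, and the mice were anesthetized with isoflurane before they were sacrificed. RNA-Seq was performed on 12 whole tumors, each from its own mouse, 6 of the 10 mice in each group. The values are FPKM, fragments per kilobase of gene length, scaled to the number of fragments sequenced, so levels of different genes are compared per length here.

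In a growing tumor, endothelial cells are held together by junction proteins such as VE-cadherin and claudin 5, and are kept quiescent or set in motion by the angiopoietins acting on the receptor Tie2. VEGF turns some of them into tip cells, which express Dll4 and through Notch hold back their neighbours, while the trailing stalk is covered by pericytes and smooth muscle cells. Lymphatic endothelium is set apart from blood endothelium by the transcription factor Prox1.

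The sum of FPKM values and the number of genes above 0 differed little between tumors, with 22293 to 23974 genes above 0. Because FPKM values carry no read numbers, the absolute depth is unknown, and the relative depth, read from the steps between low values, was 0.693 in control 2 and 0.871 to 1.0 in the other tumors. Weakly expressed vessel genes are therefore least precise in control 2. Control 1 and swimming 5 stood apart from the other 10 tumors, with summed fibroblast markers of 825 and 796 FPKM against 194 to 483, summed adipocyte markers of 168 and 44.0 FPKM against 8.97 to 20.2, and summed macrophage markers of 1010 and 1170 FPKM against 670 to 973. Not every marker followed its sum: Dcn, Mrc1 and Cd163 were highest in control 4, Pdgfra in control 2 and Cd68 in swimming 3. All other markers of these lists were highest in control 1 or swimming 5. Values without control 1 and swimming 5 are given for the class medians, the correlations described in full and the genes that changed most with them. As a check of the colon carcinoma label, all 7 markers of its list are given: Krt20 was 99.8 to 194 FPKM, Krt18 5.89 to 14.8 FPKM, Krt8 1.86 to 129 FPKM with its highest value in control 4, and Cdh1 0.12 to 0.43 FPKM, while Epcam, Vil1 and Cdx2 reached at most 0.177, 0.0908 and 0.341 FPKM and were at 0 in at least 1 tumor. Of the endothelial markers used as a check of that label, Pecam1, Cdh5, Tie1, Erg and Kdr (VEGFR2), the lowest value in any tumor was 0.837 FPKM (Erg), and 23 of the 24 endothelial identity genes were at 0.1 FPKM or more in every tumor, Vwf being the exception, whereas the lymphatic label did not hold for Prox1, as described with the lymphatic genes. In whole tumors, fewer cells of a type and less RNA per cell cannot be told apart.

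The 41 genes spanned a wide range of levels. The most strongly expressed was Esm1 (endocan, a proteoglycan secreted by tip cells), at 183 to 373 FPKM in the 12 tumors, above 99.0% of the genes tested. It was followed by Cd34, a sialomucin of endothelial and progenitor cells, at 74.6 to 92.2 FPKM, and by Apln, the ligand apelin, at 22.9 to 35.5 FPKM. The mean of Esm1 was 311 FPKM, against 14.8 FPKM for Cdh5 and 4.36 FPKM for the tip cell gene Dll4. Across the 12 tumors Esm1 did not rise with Cdh5 (r = -0.106). Which cells of the tumor carried the Esm1 RNA was not tested. Plvap, which forms the diaphragms of fenestrated endothelium, ranged from 15.6 to 33.5 FPKM, and Cdh5 (VE-cadherin) from 11.3 to 18.3 FPKM. The ranges of Mcam, Ecscr, Efnb2 and Ephb4 overlapped that of Cdh5. At the low end were Angpt1 (angiopoietin 1, the Tie2 agonist made by mural cells) at 0.0115 to 0.608 FPKM, Vwf (von Willebrand factor) at 0.0871 to 0.805 FPKM, and the genes Sox17, Myh11 and Cspg4, which stayed below 1.2 FPKM. Prox1 was the only one of the 41 genes that failed the filter of 0.1 FPKM in at least 6 tumors, which left 40 members among 19018 genes tested.

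**Figure D1:**
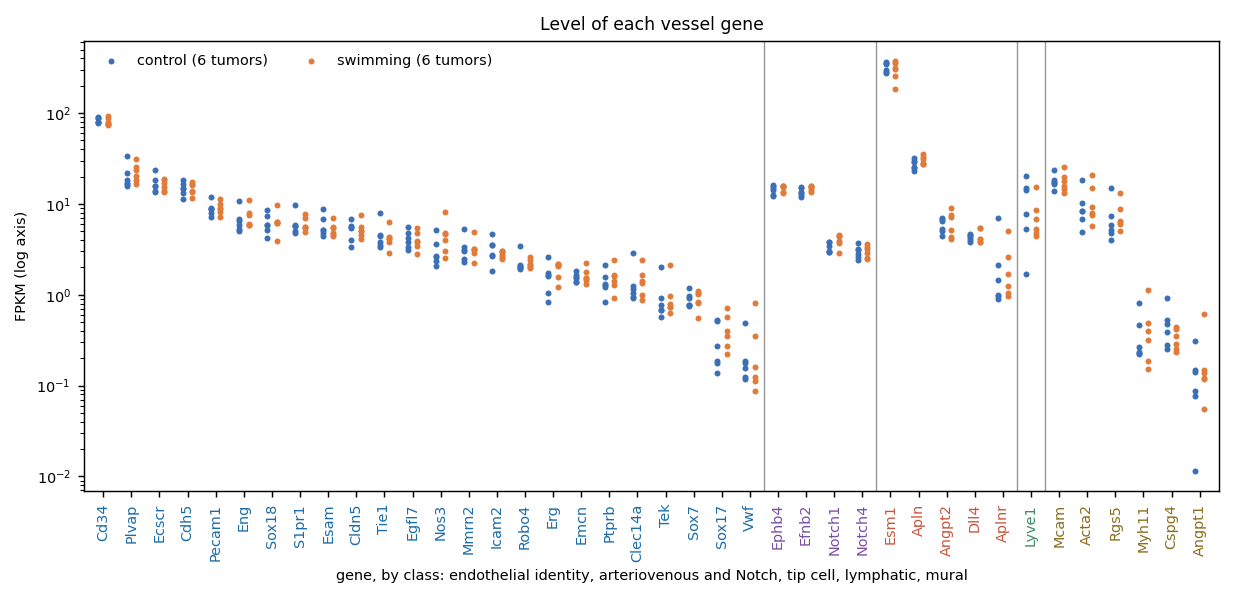
FPKM on a log axis (vertical) of the vessel genes that passed the filter (horizontal, ordered by level within each class), with a point for each of 6 control tumors (blue) and 6 swimming tumors (orange). Esm1 lay highest at 183 to 373 FPKM, Angpt1 lowest at 0.0115 to 0.608 FPKM, and the values of both groups overlapped for every gene.

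The promoter is where factors of the endothelial program, among them the ETS factor encoded by Erg, bind DNA. The bases just upstream of 5 genes are shown from the RefSeq gene starts on GRCm38.p6: Cldn5 and Notch4, which varied between tumors with Cdh5, Eng and Rgs5, which varied with the fibroblast gene Col1a2, and the tip cell gene Esm1, which had the highest level. All 5 are on the plus strand and read 5′ to 3′, and capitals mark AGGAAG, one form of the ETS site, or its reverse complement CTTCCT. The shorter ETS core GGAA, which stretches without capitals can hold, was not searched. The stretches, of 250 bases except for Notch4 with 223, are chr16:18776597-18776846 for Cldn5, chr17:34564045-34564267 for Notch4, chr2:32646345-32646594 for Eng, chr1:169655251-169655500 for Rgs5 and chr13:113209409-113209658 for Esm1. They end where the first annotated exon begins.
Cldn5: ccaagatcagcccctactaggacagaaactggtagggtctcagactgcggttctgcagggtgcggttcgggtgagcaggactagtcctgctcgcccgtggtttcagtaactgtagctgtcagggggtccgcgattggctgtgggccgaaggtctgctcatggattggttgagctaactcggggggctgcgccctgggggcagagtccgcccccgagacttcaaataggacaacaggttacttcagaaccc
Notch4: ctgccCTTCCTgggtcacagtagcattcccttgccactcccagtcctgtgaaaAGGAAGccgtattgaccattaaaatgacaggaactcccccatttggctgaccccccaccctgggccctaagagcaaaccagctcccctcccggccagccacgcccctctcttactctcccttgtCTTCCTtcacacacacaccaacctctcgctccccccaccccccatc
Eng: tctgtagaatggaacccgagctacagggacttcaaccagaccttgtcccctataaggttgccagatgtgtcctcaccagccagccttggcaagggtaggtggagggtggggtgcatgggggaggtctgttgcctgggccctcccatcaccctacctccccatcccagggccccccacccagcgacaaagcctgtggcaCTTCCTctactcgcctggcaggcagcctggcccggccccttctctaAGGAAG
Rgs5: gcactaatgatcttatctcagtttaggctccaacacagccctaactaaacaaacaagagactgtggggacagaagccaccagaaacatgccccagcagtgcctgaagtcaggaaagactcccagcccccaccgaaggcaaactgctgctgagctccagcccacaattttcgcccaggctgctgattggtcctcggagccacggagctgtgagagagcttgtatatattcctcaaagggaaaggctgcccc
Esm1: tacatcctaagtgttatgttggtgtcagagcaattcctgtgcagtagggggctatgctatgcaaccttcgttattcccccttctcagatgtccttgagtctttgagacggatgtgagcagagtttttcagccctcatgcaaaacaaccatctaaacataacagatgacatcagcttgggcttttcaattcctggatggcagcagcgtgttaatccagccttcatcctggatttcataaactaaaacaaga
The motif occurred 3 times in the stretch of Notch4, 2 times in that of Eng and 0 times in those of Cldn5, Rgs5 and Esm1. A promoter was available for 22 of the 41 genes. Searched on both strands in the 250 bases upstream of each gene start, also for Notch4, and with no other motif searched, the motif was found for 7 of 10 endothelial identity genes (Tie1, Eng, Emcn, Robo4, Egfl7, Cd34 and Erg), for 1 of 4 arteriovenous and Notch genes (Notch4), for 1 of 3 tip cell genes (Apln), and for 0 of 4 mural genes and 0 of 1 lymphatic gene. Among all 27025 genes with a promoter it was found for 8734, or 32.3%, against 9 of 22 vessel genes, or 40.9%. These matches describe the letters only.

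To see whether the vessel genes differed between the groups, log2(FPKM + 1) was compared with limma's test over all genes. Of the 40 members tested, 0 passed an unadjusted p below 0.05 upwards and 0 downwards in the swimming group, where 5.56% of all genes tested passed (3.11% higher and 2.46% lower). At an adjusted p below 0.05 there were 0 members and 0.0% of all genes, and the smallest adjusted p of a member in limma's test was 0.889. A 2-fold change with an unadjusted p below 0.05 was reached by 0 members and by 0.105% of all genes. The groups overlapped in each of the 40 members and did not overlap in 0.147% of all genes. The smallest two-sided exact permutation p of a member was 0.0736, that of Notch1, and the 924 divisions of 12 tumors into 6 and 6 allow a p as small as 0.00216. The differences were small: 37 of 40 members had an absolute log2 fold change below 0.2, against 89.9% of all genes. A positive log2 fold change was found in 26 of 40 members, against 51.7% of all genes.

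**Figure D2:**
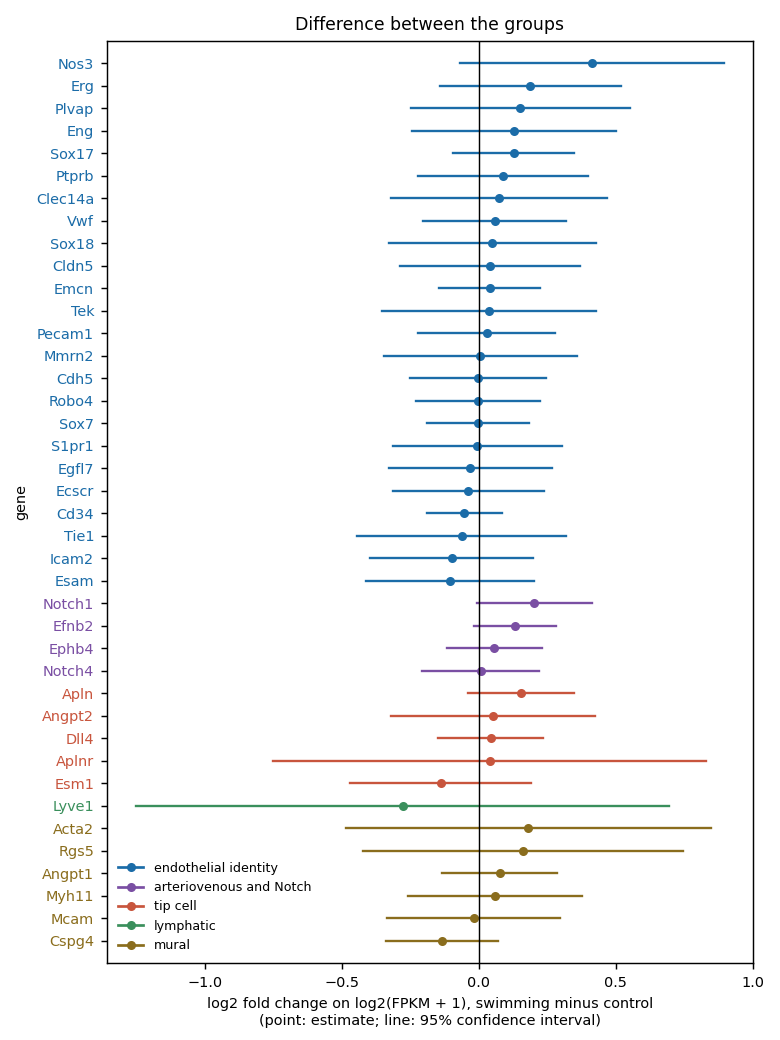
Log2 fold change (horizontal, swimming minus control, on log2(FPKM + 1)) of each vessel gene that passed the filter, by class; points are limma estimates and lines are 95% confidence intervals over 6 control and 6 swimming tumors. Every interval crosses 0, and those of Lyve1, Aplnr, Acta2 and Rgs5 are the widest.

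Among the 24 endothelial identity genes, 14 had a positive and 10 a negative estimate, and none passed the test in either direction. Their median log2 fold change was 0.034, against 0.0039 over all genes tested, and it was -0.0276 without control 3, -0.0314 without swimming 5 and 0.117 without control 1. Pecam1 (chr11:106654217-106750628, minus strand in GRCm38) encodes CD31, the adhesion molecule most often stained to count vessels. Its values were 12.04, 9.05, 7.17, 8.76, 7.86 and 8.72 FPKM in control 1 to 6 and 8.20, 10.1, 8.79, 9.03, 11.3 and 7.26 FPKM in swimming 1 to 6. Control 1 and swimming 5 were the highest tumors, control 3 and swimming 6 the lowest of their groups, and the groups overlapped. The mean was 8.94 ± 1.67 FPKM in control tumors and 9.11 ± 1.42 FPKM in swimming tumors (SD, n = 6 each), a log2 fold change of 0.029 with a 95% interval of -0.22 to 0.28, or 0.859-fold to 1.21-fold (limma p = 0.804, adjusted p = 0.986; two-sided exact permutation p = 0.825).

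Cdh5 (chr8:104101625-104144511, plus strand), the VE-cadherin of adherens junctions, was 18.3, 16.7, 11.3, 14.9, 13.2 and 14.7 FPKM in control 1 to 6 and 17.4, 16.1, 13.8, 13.4, 16.4 and 11.6 FPKM in swimming 1 to 6. The means of both groups were 14.8 FPKM (SD 2.45 and 2.21, n = 6 each), with a log2 fold change of -0.0027 and a 95% interval of -0.25 to 0.25 (limma adjusted p = 0.998). Cldn5, the claudin of endothelial tight junctions, was 6.85, 5.43, 3.34, 5.76, 3.97 and 5.61 FPKM in control 1 to 6 and 7.57, 5.004, 4.61, 4.98, 5.55 and 4.11 FPKM in swimming 1 to 6. Swimming 1 had the highest value and control 3 the lowest, and the log2 fold change was 0.041 (95% interval -0.29 to 0.37, limma adjusted p = 0.985). Plvap was 33.5, 17.1, 16.8, 21.7, 15.6 and 18.6 FPKM in control 1 to 6 and 20.4, 23.9, 25.2, 18.3, 31.6 and 16.5 FPKM in swimming 1 to 6. Control 1 and swimming 5 were again above all other tumors, and 5 of 6 swimming tumors lay above the control median. The log2 fold change of Plvap was 0.15 (95% interval -0.25 to 0.55, limma adjusted p = 0.944).

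Nos3, the endothelial nitric oxide synthase, had the largest difference of the endothelial genes on log2(FPKM + 1), though with a pseudocount of 0.01 that of Sox17 was larger (0.542 against 0.524). Nos3 ranged from 2.08 to 5.19 FPKM (median 2.64) in control tumors and from 2.52 to 8.17 FPKM (median 4.37) in swimming tumors, and 5 of 6 swimming tumors lay above the control median. Its highest value was in swimming 6, a tumor that was the lowest of all for 7 of the other endothelial genes, and the groups overlapped between 2.52 and 5.19 FPKM. The log2 fold change was 0.41 with a 95% interval of -0.07 to 0.89 (limma p = 0.0873, adjusted p = 0.889; two-sided exact permutation p = 0.123). Without control 5, and likewise without swimming 3, limma's unadjusted p fell below 0.05. Of the exonic bases of Nos3, 32.3% are shared with genes on the opposite strand, chiefly Atg9b, and the strand setting of the read counting is not given in the sources used here, so reads of both genes cannot be told apart there.

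The receptors and surface proteins differed by less. Tek, the angiopoietin receptor Tie2, ranged from 0.573 to 2.01 FPKM (median 0.728) in control tumors and from 0.625 to 2.13 FPKM (median 0.764) in swimming tumors, a log2 fold change of 0.038 (95% interval -0.35 to 0.43). Its relative Tie1 ranged from 3.34 to 7.90 FPKM and from 2.88 to 6.34 FPKM, a log2 fold change of -0.063 (95% interval -0.45 to 0.32). Eng (endoglin, a co-receptor for TGF-beta ligands) had a log2 fold change of 0.13 (95% interval -0.24 to 0.50). The transcription factors gave estimates of 0.19 for Erg, 0.13 for Sox17, 0.049 for Sox18 and -0.0041 for Sox7, each with an interval that included 0. Icam2, an adhesion molecule for leukocytes, had 0 of 6 swimming tumors above the control median, but its values overlapped, at 1.85 to 4.71 FPKM in control tumors and 2.45 to 3.07 FPKM in swimming tumors, and its log2 fold change was -0.099 (limma adjusted p = 0.955). The remaining endothelial genes, namely Esam, Emcn, Vwf, Robo4, Ecscr, Egfl7, Mmrn2, Clec14a, Cd34, Ptprb and S1pr1, lay between -0.11 (Esam) and 0.090 (Ptprb).

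All 4 arteriovenous and Notch genes had a positive estimate, with a median log2 fold change of 0.095, and 0 of 4 passed the test. Notch1 (chr2:26457903-26516663, minus strand), a receptor for Dll4 on endothelial and many other cells, was 3.41, 3.79, 3.04, 2.94, 2.99 and 3.81 FPKM in control 1 to 6 and 2.89, 4.47, 3.69, 3.93, 4.55 and 4.49 FPKM in swimming 1 to 6. The 4 highest values, in swimming 2, 4, 5 and 6, were above all control tumors, whereas swimming 1 was the lowest tumor of all. The mean was 3.33 ± 0.399 FPKM in control tumors and 4.0 ± 0.649 FPKM in swimming tumors (SD, n = 6 each). The log2 fold change was 0.20 with a 95% interval of -0.0076 to 0.41, with the smallest p of the vessel genes (limma p = 0.0576, adjusted p = 0.889; two-sided exact permutation p = 0.0736). It passed an unadjusted 0.05 in limma's test under other settings, namely quantile normalization and eBayes without trend, and also without control 2, without control 6 and without swimming 1. Of the exonic bases of Notch1, 9.8% are shared with genes on the opposite strand.

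Efnb2, the ephrin ligand of arterial endothelium, was 13.1, 15.2, 15.6, 11.9, 12.5 and 13.7 FPKM in control 1 to 6 and 13.5, 15.7, 15.4, 15.5, 15.9 and 14.1 FPKM in swimming 1 to 6. All 6 swimming tumors were above the control median of 13.4 FPKM, but control 2, 3 and 6 lay among them. The log2 fold change was 0.13 (95% interval -0.017 to 0.28, limma p = 0.078, adjusted p = 0.889; two-sided exact permutation p = 0.0758), and without control 2, control 3 or swimming 1 limma's unadjusted p was below 0.05. Ephb4, the venous receptor of that ligand, was 16.3, 14.9, 14.2, 12.5, 12.2 and 15.9 FPKM in control 1 to 6 and 13.4, 15.8, 15.8, 15.96, 15.5 and 13.1 FPKM in swimming 1 to 6, a log2 fold change of 0.057 (95% interval -0.12 to 0.23). These genes varied little: the highest tumor was 1.33 times the lowest for Efnb2 and for Ephb4. Notch4, the endothelial Notch receptor, ranged from 2.40 to 3.74 FPKM in control tumors and from 2.46 to 3.61 FPKM in swimming tumors, with a log2 fold change of 0.0065 (95% interval -0.21 to 0.22).

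Of the 5 tip cell genes, 4 were higher and 1 was lower by their estimates, with a median log2 fold change of 0.043, and 0 of 5 passed the test. The median was slightly below 0 without control 3, swimming 1 or swimming 2, at -0.00808, -0.00453 and -0.00661. Angpt2 (chr8:18690263-18741562, minus strand) encodes angiopoietin 2, the ligand that endothelial cells release to loosen vessels. It was 5.28, 4.997, 4.49, 6.94, 6.498 and 6.91 FPKM in control 1 to 6 and 9.12, 7.65, 5.18, 4.08, 4.36 and 7.24 FPKM in swimming 1 to 6. The swimming tumors spread more widely than the control tumors, with swimming 1, 2 and 6 above and swimming 4 and 5 below all of them. The mean was 5.85 ± 1.06 FPKM and 6.27 ± 2.03 FPKM (SD, n = 6 each), a log2 fold change of 0.053 (95% interval -0.32 to 0.43; limma adjusted p = 0.981; two-sided exact permutation p = 0.777). Dll4, the Notch ligand of tip cells, was 4.43, 3.97, 4.50, 3.80, 4.23 and 4.62 FPKM in control 1 to 6 and 5.38, 5.46, 3.78, 3.84, 4.15 and 4.11 FPKM in swimming 1 to 6. Only swimming 1 and swimming 2 stood above the control range, and the log2 fold change was 0.043 (95% interval -0.15 to 0.24).

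Esm1 (chr13:113209659-113218098, plus strand) was 359.6, 281, 279, 350.0, 368 and 299 FPKM in control 1 to 6 and 352, 307, 317, 259, 183 and 373 FPKM in swimming 1 to 6. Swimming 5, which was among the highest pair of tumors for 24 of the 40 members, had the lowest Esm1 of all 12 tumors. The log2 fold change was -0.14 (95% interval -0.47 to 0.19, limma adjusted p = 0.94), and it turned positive, at 0.027, without control 1 and swimming 5. Apln ranged from 22.9 to 32.4 FPKM (median 27.2) in control tumors and from 27.2 to 35.5 FPKM (median 29.8) in swimming tumors, with all 6 swimming tumors above the control median. Its log2 fold change was 0.15 (95% interval -0.038 to 0.35; limma p = 0.107, adjusted p = 0.899; two-sided exact permutation p = 0.134). Without control 1 and swimming 5 it was 0.23 and its unadjusted p was 0.0208 in limma's test, and the p was also below 0.05 without control 1 alone (0.0341). Aplnr, the apelin receptor, was counted in this class with its ligand Apln, and the counts and medians of the class include it. Whether tip cells carried its RNA was not tested. Aplnr ranged from 0.89 to 7.01 FPKM in control tumors and from 0.973 to 5.05 FPKM in swimming tumors, where the highest values were those of control 1 and swimming 5. Its log2 fold change was 0.04 with a wide interval of -0.75 to 0.83.

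The lymphatic genes were 2. Prox1, the transcription factor that defines lymphatic endothelium, was listed at 0 in 8 of 12 tumors, and its highest value was 0.0365 FPKM in swimming 5. It was therefore not tested. Lyve1 (chr7:110850607-110863239, minus strand), a hyaluronan receptor of lymphatic endothelium that some tissue macrophages also carry, was 15.1, 5.30, 1.69, 20.2, 14.2 and 7.84 FPKM in control 1 to 6 and 8.49, 5.35, 4.47, 6.76, 15.5 and 4.80 FPKM in swimming 1 to 6. The spread was wide, 12-fold from control 3 to control 4, and 1 of 6 swimming tumors was above the control median of 11 FPKM. The log2 fold change was -0.28 with a 95% interval of -1.25 to 0.70 (limma p = 0.548, adjusted p = 0.966; two-sided exact permutation p = 0.589). It depended on single tumors, from -0.645 without control 3 to -0.0492 without control 4, and was -0.34 without control 1 and swimming 5. Of the other lymphatic genes, Flt4 (VEGFR3) was 0.569 to 1.02 FPKM, Reln, Mmrn1 and Stab2 stayed below 0.1 FPKM, and Pdpn and Nrp2, which many other cells express, reached 18.5 to 44.6 FPKM and 33.5 to 44.5 FPKM.

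Since the level of Lyve1 was far above that of Prox1, its variation between tumors was set beside macrophage genes, a choice made after the values were seen. Across the 12 tumors, Lyve1 rose with Mrc1, the mannose receptor of macrophages (r = 0.946, with a permutation p of 1e-05, the smallest that 100000 permutations can give, and 3e-05 after adjustment over 3 relations; rho = 0.923, with 6e-05 by permutation and 0.00018 after adjustment). Without control 3 and control 4, the tumors farthest from the median, r was 0.89, and within the control and the swimming tumors it was 0.944 and 0.961. Lyve1 also rose with Cd163, a scavenger receptor of macrophages (r = 0.934, with a permutation p of 2e-05 and 3e-05 after adjustment; rho = 0.839, with 0.00124 by permutation and 0.00186 after adjustment), at 0.888 without the same tumors and at 0.955 and 0.872 within the groups. With Timd4, a further marker of resident macrophages, the relation did not pass the test (r = 0.372, permutation p = 0.232, and rho = 0.224, permutation p = 0.485). Ordered by r with Lyve1 among 19017 other genes, Mrc1 ranked 3 and Cd163 ranked 4, but the other macrophage markers ranked from 428 (C1qc, r = 0.639) to 5344 (Adgre1, r = 0.219), with Csf1r at 1236 (r = 0.516). The endothelial genes Cdh5 and Pecam1 lay among them at 1042 (r = 0.542) and 1184 (r = 0.525). Flt4 ranked 3622 (r = 0.324) and Nrp2 ranked 16488 (r = -0.391). Which cells of the tumor carried the Lyve1 RNA was not tested.

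**Figure D3:**
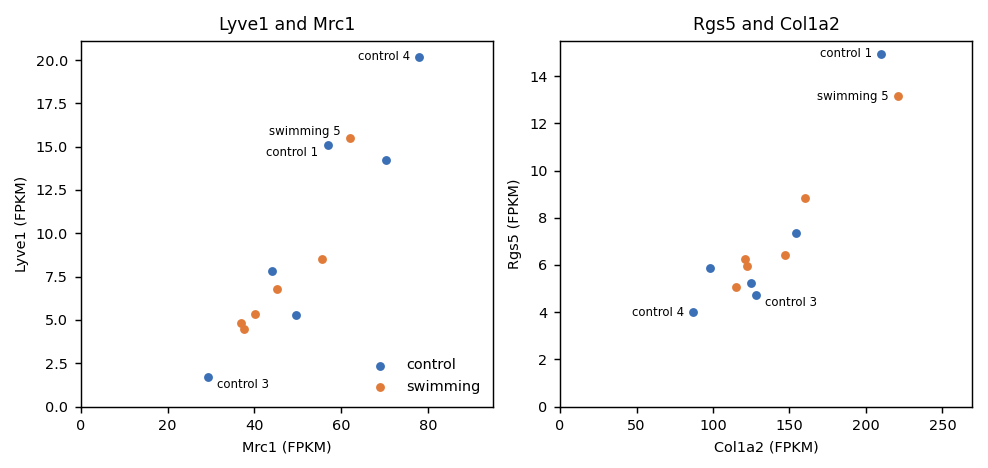
Each point is a tumor (blue, control; orange, swimming), with FPKM on both axes; left, Lyve1 against the macrophage gene Mrc1, and right, Rgs5 against the fibroblast gene Col1a2. Lyve1 follows Mrc1 from control 3 to control 4 (r = 0.946), and the 2 highest tumors for Rgs5 are control 1 and swimming 5 (r = 0.915), both r on log2(FPKM + 1).

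Of the 6 mural genes, 4 were higher and 2 lower by their estimates, and 0 of 6 passed the test. Their median log2 fold change was 0.068, and it was -0.0199 without swimming 5 and 0.153 with a pseudocount of 0.1. Rgs5 (chr1:169655501-169695813, plus strand), a regulator of G protein signaling in pericytes, was 14.96, 7.35, 4.74, 3.99, 5.86 and 5.22 FPKM in control 1 to 6 and 6.25, 5.08, 8.83, 6.42, 13.2 and 5.97 FPKM in swimming 1 to 6. Control 1 and swimming 5 were above 13 FPKM and every other tumor was below 9 FPKM. The mean was 7.02 ± 4.05 FPKM in control tumors and 7.62 ± 2.99 FPKM in swimming tumors (SD, n = 6 each), a log2 fold change of 0.16 (95% interval -0.42 to 0.74; limma adjusted p = 0.968; two-sided exact permutation p = 0.597), and 0.23 without both high tumors. Cspg4, the NG2 proteoglycan of pericytes, was 0.912, 0.388, 0.254, 0.478, 0.278 and 0.526 FPKM in control 1 to 6 and 0.348, 0.284, 0.442, 0.235, 0.421 and 0.256 FPKM in swimming 1 to 6. The level was low and 1 of 6 swimming tumors was above the control median, with a log2 fold change of -0.13 (95% interval -0.34 to 0.069; limma p = 0.179, adjusted p = 0.914; two-sided exact permutation p = 0.208). Since the values are below 1 FPKM, the pseudocount of 1 shrinks this estimate, which was -0.34 and -0.41 with pseudocounts of 0.1 and 0.01.

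Acta2, the smooth muscle actin of mural cells and activated fibroblasts, was 18.3, 8.32, 4.93, 8.34, 6.81 and 10.2 FPKM in control 1 to 6 and 9.17, 5.75, 15.1, 7.58, 20.8 and 7.99 FPKM in swimming 1 to 6. Swimming 5, control 1 and swimming 3 were the 3 highest tumors, and the log2 fold change was 0.18 (95% interval -0.48 to 0.85; limma adjusted p = 0.968). Angpt1 was 0.313, 0.14, 0.0766, 0.0862, 0.0115 and 0.148 FPKM in control 1 to 6 and 0.122, 0.0557, 0.139, 0.118, 0.608 and 0.15 FPKM in swimming 1 to 6. Its mean level was above 6.74% of the genes tested, the highest value was in swimming 5, and the log2 fold change of 0.076 (95% interval -0.13 to 0.28) was 0.30 and 0.59 with pseudocounts of 0.1 and 0.01, without passing the test. Myh11, the myosin of mature smooth muscle, ranged from 0.222 to 0.82 FPKM in control tumors and from 0.152 to 1.13 FPKM in swimming tumors, a log2 fold change of 0.059. Mcam (CD146), found on pericytes and endothelium, ranged from 13.8 to 23.7 FPKM and from 13.2 to 25.2 FPKM, a log2 fold change of -0.018.

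Ratios within a tumor were then compared, so that a tumor with more vessel RNA as a whole would count less. The Rgs5 to Cdh5 values of control 1 and swimming 5 stayed highest, at -0.272 and -0.298 against -1.67 to -0.59 in the other tumors. In no other ratio were these tumors the highest pair. For Acta2 to Cdh5 and Plvap to Cldn5, swimming 5 was highest, at 0.326 and 2.31. There, swimming 3 (0.118 and 2.22) lay above control 1 (0.00159 and 2.14). Each ratio is a difference of log2(FPKM + 1) values, and 8 ratios were formed. The angiopoietin balance, Angpt2 to Angpt1, averaged 2.59 ± 0.287 in control tumors and 2.57 ± 0.55 in swimming tumors (SD, n = 6 each), a difference of -0.023 (two-sided exact permutation p = 0.935). With Angpt1 below 1 FPKM, this ratio depends on the pseudocount, and the difference was -0.25 and -0.54 with pseudocounts of 0.1 and 0.01 (exact permutation p = 0.662 and 0.53). The tip cell genes per Cdh5 differed by 0.046 for Dll4 (exact permutation p = 0.719) and by -0.14 for Esm1 (exact permutation p = 0.587). Mural genes per Cdh5 differed by 0.16 for Rgs5 (exact permutation p = 0.537), by 0.18 for Acta2 (exact permutation p = 0.548) and by -0.13 for Cspg4 (exact permutation p = 0.195). For Cspg4, 2 of 6 swimming tumors were above the control median, and the difference was -0.34 and -0.41 with pseudocounts of 0.1 and 0.01 (exact permutation p = 0.0996 and 0.115). The ratio of fenestrated to tight endothelium, Plvap to Cldn5, differed by 0.11 (exact permutation p = 0.567). The ratio of the ephrin ligand Efnb2 to its receptor Ephb4 differed by 0.075 (exact permutation p = 0.312). Across the 12 tumors, r with Cdh5 was -0.113 for Efnb2 and 0.354 for Ephb4. With the fibroblast gene Col1a2 it was 0.52 and 0.717, and 0.812 and 0.733 without control 1 and swimming 5. Which cells of the tumor carried the RNA of Efnb2 and Ephb4 was not tested. Adjusted over the 8 ratios by Benjamini-Hochberg, the smallest p was 0.782.

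Tumors of the same group differed from each other in these genes. Control 1 was the highest of the 12 tumors for 18 of the 40 members and swimming 5 for 12 of them, and both together were the top pair for 20 of 40 members, against 6.24% of all genes tested. By class, this was so for 14 of 24 endothelial identity genes, 4 of 6 mural genes, 1 of 4 arteriovenous and Notch genes, 1 of 5 tip cell genes (Aplnr) and 0 of 1 lymphatic gene. Relative to the median of the other 10 tumors, control 1 and swimming 5 were 6.12-fold and 4.41-fold for Aplnr, 3.52-fold and 5.76-fold for Vwf, 3.29-fold and 4.51-fold for Myh11, and 2.76-fold and 2.92-fold for Tek. For Rgs5 they were 2.53-fold and 2.23-fold, and for Acta2 2.24-fold and 2.55-fold.

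Over the 24 endothelial identity genes the median was 1.67-fold in control 1 and 1.44-fold in swimming 5, ranging from 1.10-fold (Cd34) to 3.52-fold (Vwf) and from 1.04-fold (Robo4) to 5.76-fold (Vwf). Pecam1 was 1.38-fold and 1.29-fold, and Cdh5 1.28-fold and 1.15-fold. The medians were 2.57-fold and 2.39-fold for the 6 mural genes, and 1.02-fold and 1.16-fold for the 4 arteriovenous and Notch genes. The tip cell genes other than Aplnr were 1.06-fold and 0.995-fold for Dll4, 0.787-fold and 0.65-fold for Angpt2, 1.14-fold and 0.957-fold for Apln, and 1.15-fold and 0.588-fold for Esm1. At the other end, control 3 was the lowest tumor for 12 of 40 members and swimming 6 for 8. The summed fibroblast, adipocyte and macrophage markers, which were also high in control 1 and swimming 5, are given above. Platelet markers were 62.2 and 36.6 FPKM there against 26.2 to 59.8 FPKM in the other tumors, red blood cell markers 601 and 363 FPKM against 152 to 1240 FPKM, and skeletal muscle markers 38.4 and 296 FPKM against 1.20 to 212 FPKM. The part of these other tissues in the vessel gene values was not tested. With both left out, 1 in each group, the median log2 fold changes were 0.0302 for endothelial identity, 0.094 for arteriovenous and Notch, 0.11 for tip cell and 0.044 for mural genes.

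**Figure D4:**
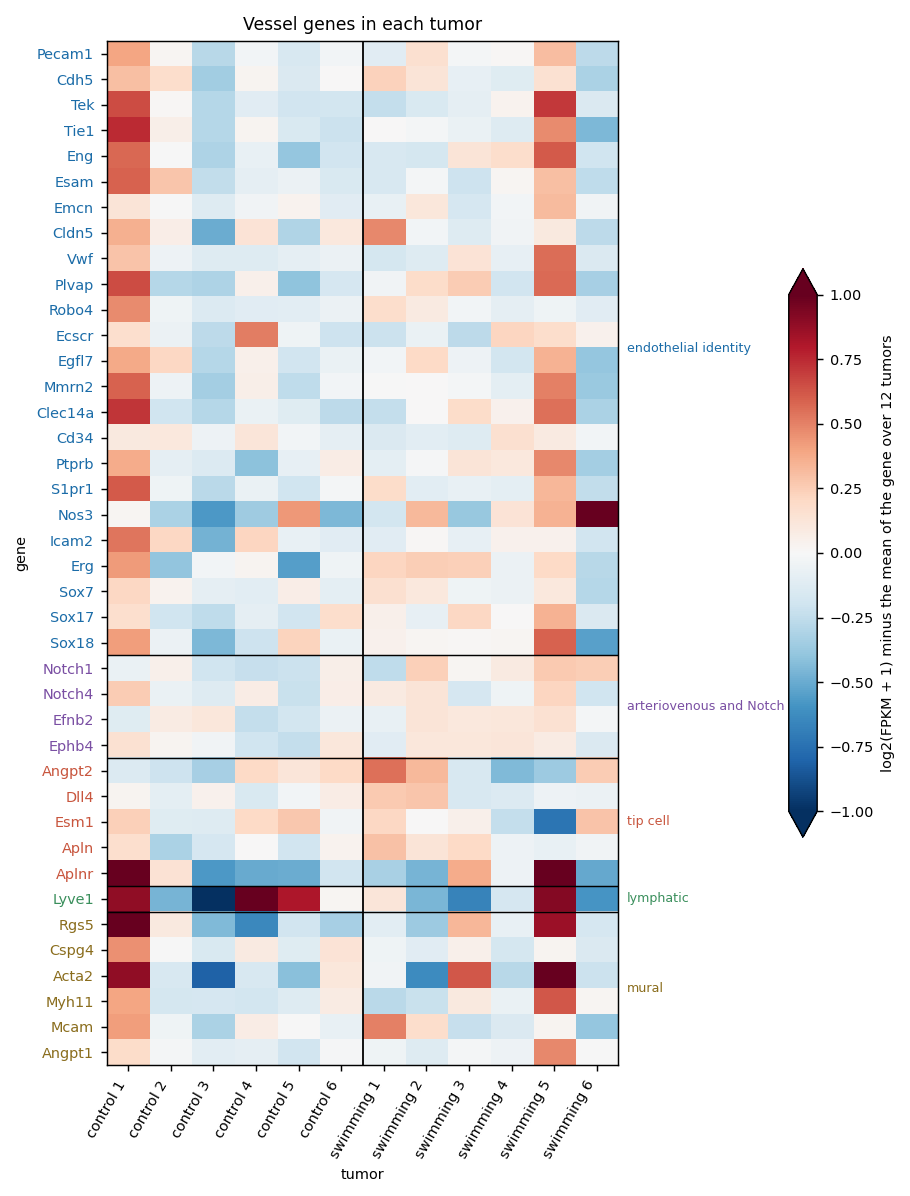
Each row is a vessel gene that passed the filter and each column a tumor (6 control, then 6 swimming, divided by the vertical line); color is log2(FPKM + 1) minus the mean of the gene over the 12 tumors, from -1 (blue) to 1 (red). The columns of control 1 and swimming 5 are red for most endothelial and mural genes, while Angpt2, Dll4 and Esm1 do not follow them.

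How the vessel genes varied together was followed across the 12 tumors against 3 genes, in 119 relations. These were Cdh5 for endothelium, Col1a2 (collagen I) for fibroblasts and Csf1r (the CSF1 receptor) for macrophages. Cdh5 is itself a member, so 39 members were set against it. By Pearson's r with 100000 permutations and Benjamini-Hochberg adjustment, 13 of 39 members rose with Cdh5, 18 of 40 with Col1a2 and 23 of 40 with Csf1r at an adjusted p below 0.05, and 0 fell with any of them. By Spearman's rho, counted after the values were seen, 8, 5 and 11 members rose and 0 fell, and with quantile normalization r gave 9 with Col1a2 and 15 with Csf1r. An r above 0.5 was found for 56.4% of members with Cdh5, 52.5% with Col1a2 and 77.5% with Csf1r, against 8.35%, 17.7% and 13.6% of all genes, a background counted after the values were seen. These counts depended on control 1 and swimming 5. Without both, 6, 0 and 1 members rose with Cdh5, Col1a2 and Csf1r, and 10 tumors also give less power than 12. Without control 1 alone the counts with Col1a2 and Csf1r were 9 and 11, and without swimming 5 alone 8 and 13. The median r of pairs of endothelial genes was 0.644 with all tumors and 0.304 without these tumors, and that of endothelial with mural genes 0.61 and 0.152.

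The genes closest to Cdh5 were Cldn5 (r = 0.888, with a permutation p of 7e-05 and 0.00278 after adjustment; rho = 0.867, with 0.00054 by permutation and 0.00803 after adjustment) and Egfl7, an endothelial secreted factor (r = 0.887, with a permutation p of 0.0002 and 0.00312 after adjustment; rho = 0.909, with 0.00014 by permutation and 0.00555 after adjustment). For Cldn5, r was 0.813 without control 3 and swimming 6, the tumors farthest from the median of Cdh5, 0.867 without control 1 and swimming 5, and 0.937 and 0.832 within the control and swimming tumors. For Egfl7 it was 0.814 and 0.873 without these pairs of tumors and 0.971 and 0.808 within the groups. Mcam also rose with Cdh5 (r = 0.864, with a permutation p of 0.00028 and 0.0037 after adjustment; rho = 0.825, with 0.00153 by permutation and 0.0166 after adjustment), at 0.781 and 0.843 without the same pairs and 0.84 and 0.912 within the groups. So did Notch4 (r = 0.801, with a permutation p of 0.00259 and 0.0114 after adjustment; rho = 0.79, with 0.00364 by permutation and 0.0249 after adjustment), at 0.775 and 0.723 without them and 0.738 and 0.873 within the groups. Not every endothelial gene did: r was 0.161 for Cd34, 0.185 for Ecscr and -0.163 for Nos3, and their adjusted p by permutation was at least 0.657.

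With Col1a2, the mural gene Rgs5 was closest (r = 0.915, with a permutation p of 0.00011 and 0.00278 after adjustment; rho = 0.825, with 0.00145 by permutation and 0.0166 after adjustment). Its r was 0.786 without control 1 and swimming 5, which are also the tumors farthest from the median of Col1a2, and 0.881 and 0.969 within the control and swimming tumors. Aplnr followed (r = 0.904, with a permutation p of 6e-05 and 0.00278 after adjustment; rho = 0.776, with 0.00406 by permutation and 0.0249 after adjustment), at 0.794 without both tumors and 0.878 and 0.986 within the groups. Eng came next (r = 0.863, with a permutation p of 0.00055 and 0.00503 after adjustment; rho = 0.706, with 0.0132 by permutation and 0.0543 after adjustment), so that its rho did not pass, and r was 0.601 without both tumors and 0.771 and 0.982 within the groups. For the 24 endothelial genes the median r with Col1a2 was 0.612 with all tumors and 0.049 without both. Pecam1 was an example, at 0.667 with all tumors and 0.137 without them.

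With Csf1r, Pecam1 was closest (r = 0.899, with a permutation p of 0.00012 and 0.00278 after adjustment; rho = 0.888, with 0.00032 by permutation and 0.00663 after adjustment). Its r was 0.854 without control 3 and swimming 5, the tumors farthest from the median of Csf1r, 0.793 without control 1 and swimming 5, and 0.932 and 0.891 within the groups. CD31 is also carried by platelets and some leukocytes, and their part in this relation was not tested. Over the 24 endothelial genes, r with Csf1r was 0.122 to 0.899 (median 0.747), with Egfl7 at 0.896 and Cdh5 at 0.843. The tip cell genes other than Aplnr had r between -0.106 and 0.384 with Cdh5, a range that also held Cd34 and Ecscr. Their lowest r were those with Col1a2, and neither passed the adjustment. They were Angpt2 (r = -0.623, with a permutation p of 0.0323 and 0.0663 after adjustment; rho = -0.699, with 0.0143 by permutation and 0.0569 after adjustment; r = -0.569 without control 1 and swimming 5, and -0.612 and -0.79 within the groups) and Esm1 (r = -0.568, with a permutation p of 0.0551 and 0.102 after adjustment; rho = -0.476, with 0.121 by permutation and 0.215 after adjustment; r = -0.632 without both, and -0.183 and -0.868 within the groups). Genes of the same tumor share its library, so the members are not independent of each other. Of the genes with a printed promoter, Notch4 and Cldn5 both followed Cdh5 and only the former held the motif, and Eng and Rgs5 both followed Col1a2 and only the former held it.

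**Figure D5:**
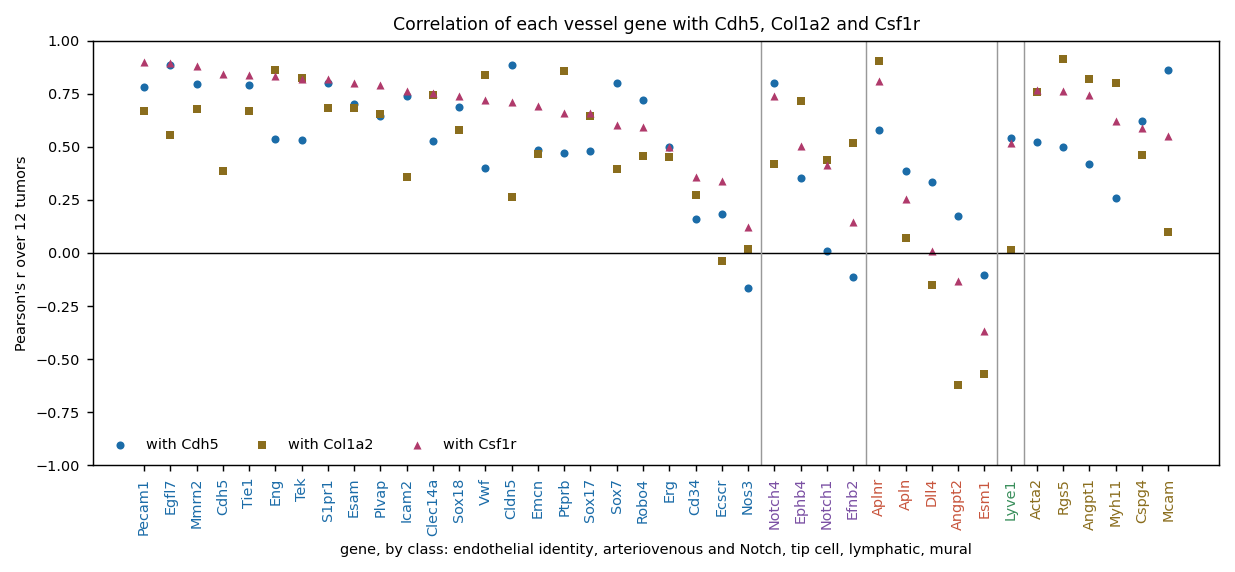
Pearson's r (vertical) of each vessel gene (horizontal, by class and ordered by r with Csf1r) with Cdh5 (circles), Col1a2 (squares) and Csf1r (triangles) over 12 tumors on log2(FPKM + 1). With Csf1r most endothelial and mural genes lie above 0.5, while Angpt2 and Esm1 lie below 0 with Col1a2, at -0.623 and -0.568.

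Other genes of the same vessel roles were followed as fixed lists of 68 genes, of which 67 were listed and 60 were tested. Of these 60, 37 were higher and 23 lower by their estimates, and 1 passed upwards and 0 downwards at an unadjusted 0.05 in limma's test, or 1.67%, against the 5.56% of all genes given above. Their median log2 fold change was 0.025. The gene that passed was Hhex, a homeobox factor of endothelial and blood precursors. It was 2.58, 1.74, 1.87, 2.22, 2.01 and 1.96 FPKM in control 1 to 6 and 2.45, 2.59, 2.91, 1.91, 3.41 and 2.28 FPKM in swimming 1 to 6, with overlapping groups. Its log2 fold change was 0.22 (limma p = 0.0482, adjusted p = 0.889; two-sided exact permutation p = 0.0584). By role, 17 of 26 other endothelial genes, 6 of 9 arteriovenous and Notch genes, 2 of 8 tip cell genes, 1 of 3 lymphatic genes and 11 of 14 mural genes had a higher estimate in the swimming group, and apart from Hhex none passed.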

How the data were processed

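Ribosomal RNA was removed from the RNA of 12 CT-26 tumors before sequencing. The authors deposited 1 value in FPKM per gene and tumor, made with HISAT2 2.0.5 and StringTie 1.3.3, in which the values were already divided by gene length and depth. The text of the study names the human genome hg38, the submitters' processing notes name hg38 and GRCm38, and the files list mouse Ensembl identifiers, so coordinates from GENCODE M21 (GRCm38) were matched by identifier only. Reads shared by overlapping genes touch 12 of the 41 members, whose exons overlap those of another gene. The shared part of the exonic bases was 32.3% for Nos3, 16.8% for Sox17, 14.2% for Angpt1, 11.2% for Egfl7 and 9.8% for Notch1. It was at most 5.6% for the others, and for Egfl7 it lies in part on the same strand.

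Genes reaching 0.1 FPKM in 6 or more tumors were compared on log2(FPKM + 1) with lmFit and eBayes with a trend in limma 3.58.1 (R 4.3.3), without covariates and with Benjamini-Hochberg adjustment over all 19018 genes. Fold changes on this scale understate those of weakly expressed genes. Single genes and ratios were compared by two-sided exact permutation, and correlations by 100000 permutations (Python 3.11.15, scipy 1.17.1).

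The members and lists were chosen with earlier results of these data known. Values of every tumor are given for members at an unadjusted p below 0.05, the first gene of each class and the genes of the 8 ratios, and a range for the others. Of the other vessel genes, those at an unadjusted p below 0.05 are named, and any further gene was chosen after its values were seen. Groups and replicate numbers are those of the labels. Tumors with the same number had a mean correlation of deviations of -0.12, against 0.0246 for tumors with different numbers. No pairing by number was seen in these values, which do not show how the numbers were given. Alternatives were other pseudocounts, filters and scalings, a fit without the eBayes trend, weights per tumor, a block for replicate numbers, fits without single tumors, and Spearman counts chosen after seeing the data.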

Additional observations from a re-analysis of the deposited data

Results flagged for a closer look

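Dixon's ratio was taken, for the highest and the lowest tumor, in 96 groups of 6 values, 80 of FPKM of single members and 16 of the log2 ratios. A tumor stood far from the rest in 17 groups, where chance gives about 1 in 20, or 4.8, and the members are not independent of each other. All 17 were high FPKM values and 0 were ratios, 11 in control 1 and 6 in swimming 5. The FPKM values were not log-transformed, which makes high values stand out more, whereas the ratios were on a log2 scale. Their counts therefore cannot be compared directly, and the chance share holds for normal values only. In control 1 the genes, with their FPKM and the next highest FPKM of the control group, were Tek (2.01, next 0.931), Tie1 (7.90, next 4.52), Eng (10.7, next 6.82), Vwf (0.491, next 0.185), Plvap (33.5, next 21.7), Robo4 (3.47, next 2.12), Mmrn2 (5.29, next 3.35), Clec14a (2.86, next 1.24), S1pr1 (9.67, next 5.90), Aplnr (7.01, next 2.10) and Rgs5 (15.0, next 7.35). In swimming 5, with the next highest FPKM of the swimming group, they were Tek (2.13, next 0.965), Vwf (0.805, next 0.349), Mmrn2 (4.91, next 3.17), Lyve1 (15.5, next 8.49), Myh11 (1.13, next 0.484) and Angpt1 (0.608, next 0.15). These are genes of endothelial identity and mural cells, together with Aplnr and Lyve1. Summed fibroblast, adipocyte and macrophage markers, though not each single marker, were also high in these tumors, and their part in these values was not tested.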

How the results depend on the processing

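At an adjusted p below 0.05, 0 members were found with each alternative run, and 0 members were past 2-fold. Depth is unknown in FPKM, so counting error could not be given, and the members most affected are those below 1 FPKM. With quantile normalization 1 member (Notch1) was higher at an unadjusted 0.05 in limma's test, and with eBayes without trend likewise 1 (Notch1), and without control 1 and swimming 5 also 1 (Apln). By Spearman's rho, an alternative chosen after seeing the data, 8, 5 and 11 members rose with Cdh5, Col1a2 and Csf1r. Members that rose with Col1a2 and Csf1r were 9 and 15 with quantile normalization, and those that rose with Cdh5, Col1a2 and Csf1r were 6, 0 and 1 without control 1 and swimming 5. Estimates close to 0 turned sign for Robo4 (0.000884 with a pseudocount of 0.1 and 0.00169 with 0.01), with quantile normalization for Mmrn2 (-0.0118) and Notch4 (-0.0118), and with sample weights for Cdh5 (0.0162), Robo4 (0.0328), S1pr1 (0.0021), Sox7 (0.0222) and Mcam (0.0236). Without control 1 and swimming 5 the sign turned for Cdh5 (0.026), Robo4 (0.0987), S1pr1 (0.0502), Sox7 (0.0152), Esm1 (0.0268), Mcam (0.056) and the log2 ratios Angpt2 to Angpt1 (0.0767) and Esm1 to Cdh5 (0.000716). With the replicate number as a block, and the pairing it implies, 0 members passed an unadjusted 0.05 in limma's test, the fold changes cannot differ by construction (0.0337 for the endothelial and 0.0675 for the mural median), and the smallest sign-flip p of a ratio was 0.0625 (Cspg4 to Cdh5, exact, where 0.0312 is the smallest possible). The causes of these changes were not tested.

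Leaving out each tumor in turn gave 0 to 2 members higher at an unadjusted p below 0.05: Apln without control 1, Notch1 and Efnb2 without control 2 and without swimming 1, Efnb2 without control 3, Nos3 without control 5 and without swimming 3, and Notch1 without control 6. Members that rose by correlation numbered 8 to 18 with Col1a2 and 11 to 25 with Csf1r. They were 9 and 11 without control 1 and 8 and 13 without swimming 5. Class medians that turned sign ranged over endothelial identity -0.0314 to 0.117, tip cell -0.00808 to 0.0787 and mural -0.0199 to 0.132, and Lyve1 over -0.645 to -0.0492. The ratios that turned sign ranged over Angpt2 to Angpt1 -0.144 to 0.143, Dll4 to Cdh5 -0.00453 to 0.129 and Esm1 to Cdh5 -0.271 to 0.027. The log2 fold changes that turned sign ranged over Cdh5 -0.0722 to 0.0605, Tie1 -0.164 to 0.0805, Esam -0.176 to 0.00141, Robo4 -0.0381 to 0.0909, Egfl7 -0.105 to 0.0424, S1pr1 -0.0715 to 0.117, Sox7 -0.0365 to 0.0521, Mcam -0.121 to 0.0629, Mmrn2 -0.094 to 0.125, Notch4 -0.0374 to 0.0583, Pecam1 -0.0294 to 0.111, Tek -0.0995 to 0.172, Cldn5 -0.0541 to 0.117, Sox18 -0.0633 to 0.163, Angpt2 -0.0517 to 0.147, Aplnr -0.176 to 0.346, Ecscr -0.0934 to 0.0606, Dll4 -0.00823 to 0.0787, Emcn -0.0197 to 0.0781, Vwf -0.0481 to 0.12, Clec14a -0.0291 to 0.225, Acta2 -0.0146 to 0.377, Myh11 -0.0588 to 0.144 and Angpt1 -0.0119 to 0.12. Of 873 results of members under the alternatives, 774 kept their sign and side of the threshold, 87 turned sign and 12 passed it.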
